A study of Mus musculus with 24 samples.

Results

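The comparison described here asks whether a BTK inhibitor and a PI3K delta inhibitor, given together, changed marrow RNA by the sum of what each did alone. All 12 specimens of the series enter it, 3 in each of 4 groups, and 12742 of the 24421 genes in the count table had enough reads to be tested. The material was bone marrow mononuclear cells of mice carrying Shp2 E76K, a gain-of-function form of the phosphatase encoded by Ptpn11, and every group carried it. The Combination group (replicates 10 to 12) received ACP196 and ACP319 together. The ACP196 group (replicates 4 to 6) received the BTK inhibitor alone, the ACP319 group (replicates 7 to 9) the inhibitor of the PI3K catalytic subunit p110δ alone, and the Vehicle group (replicates 1 to 3) neither. Treatment lasted 3 weeks in all 4 groups. Marrow without the mutation was not analysed here, and the animals' age, the promoter of the mutant allele and the doses were not given in the sources used here.

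BTK is a cytoplasmic tyrosine kinase that carries signals from the B-cell receptor and, in myeloid cells, from Fc and Toll-like receptors. PI3K delta, the leukocyte form of class I PI3K, makes the membrane lipid that recruits BTK and AKT, so that both enzymes lie on one route below many of the same receptors. Active Shp2 increases signalling through RAS and ERK and through PI3K, and its mutations are found in juvenile myelomonocytic leukemia.

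For every gene the departure from additivity was the Combination mean minus the ACP196 mean minus the ACP319 mean plus the Vehicle mean, on the log2 scale of CPM, the counts of a gene relative to the scaled size of its library. Without length adjustment, a positive departure means that the level under both drugs lay above the sum of the single drug effects. A negative one means that it lay below that sum. The ACP196, ACP319 and Combination effects named below are differences from the same 3 Vehicle libraries and so are not independent of each other.

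The libraries held between 8993950 and 22154833 counts. ACP196 replicate 5 stood apart: it had the fewest counts, detected 13560 genes and put 15.4% of its reads on Rn45s, the ribosomal RNA precursor, against 0.203% to 0.773% in the other 11. The title of ACP196 replicate 6 holds a calendar date with day of the month 30, where the titles of the other 11 specimens have 24. What that date marks is not given in the labels. Y-linked genes exceeded 10 CPM in 1 of 3 Combination, 1 of 3 ACP196, 1 of 3 ACP319 and 2 of 3 Vehicle libraries. Hemoglobin genes took at most 6.23e-06% of the counts of any library although other erythroid genes were detected. The labels give no animal identity, and p-values therefore speak of the spread among these 12 specimens alone. In bulk RNA of mixed marrow cells, fewer cells of a type and less RNA per cell cannot be told apart.

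Without regard to gene length, 1530 genes departed upward (12% of those tested) and 1992 downward (15.6%) at adjusted p under 0.05 in edgeR's quasi-likelihood test. Scaled by library size alone, 1130 were called higher and 388 lower, so that the balance of directions depended on the scaling. The upward calls included 13 of 24 components of PI3K, AKT and mTOR signalling and 13 of 31 chromatin regulators. The downward calls included 70 of 76 cytoplasmic ribosomal proteins and 34 of 36 subunits of respiratory complex I. In the 1530 genes called higher the median effect was -0.15 for the Combination, -0.92 for ACP196 and -1.17 for ACP319 (log2). In the 1992 genes called lower it was 0.12 for the Combination, 0.94 for ACP196 and 1.02 for ACP319. Both single drug means lay on the same side of Vehicle in 1529 of the genes called higher and 1991 of those called lower. The Combination mean lay nearer to Vehicle than either of them in 97.6% of the genes called higher and 96.5% of those called lower, against 63.8% of all tested genes. These shares follow in part from the contrast that made the calls and are given as a description. The count of calls rested on single libraries. It was 0 without Combination replicate 11 or 12 and 1 without ACP319 replicate 8, ACP319 replicate 9 or Vehicle replicate 2. It was 2167 without ACP196 replicate 4, 2246 without Vehicle replicate 1 and 5692 without ACP196 replicate 6.

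The departure followed the length of the gene's exons. In each library log2 CPM relative to the gene's mean was regressed on the log2 of length, giving the change in level per doubling of length. The slopes were 0.09, 0.25 and 0.29 in Combination replicates 10 to 12. They were -0.28, -0.35 and 0.18 in ACP196 replicates 4 to 6, -0.10, -0.37 and -0.38 in ACP319 replicates 7 to 9, and 0.15, 0.40 and 0.12 in Vehicle replicates 1 to 3. All 6 libraries that received both drugs or neither had a positive slope. Of the 6 libraries given 1 drug, ACP196 replicate 6 alone had a positive slope, and it lay within the range of the Combination and Vehicle libraries. The departure of the slope was 0.87 ± 0.22 (SE) log2 per doubling. An exact two-sided permutation test of the 6 libraries with both drugs or neither against the 6 with 1 drug, over all 924 divisions, gave p = 0.00866, where the smallest possible is 0.00216. The null of this test is no difference among the groups at all, and not additive drug effects.

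**Figure D1:**
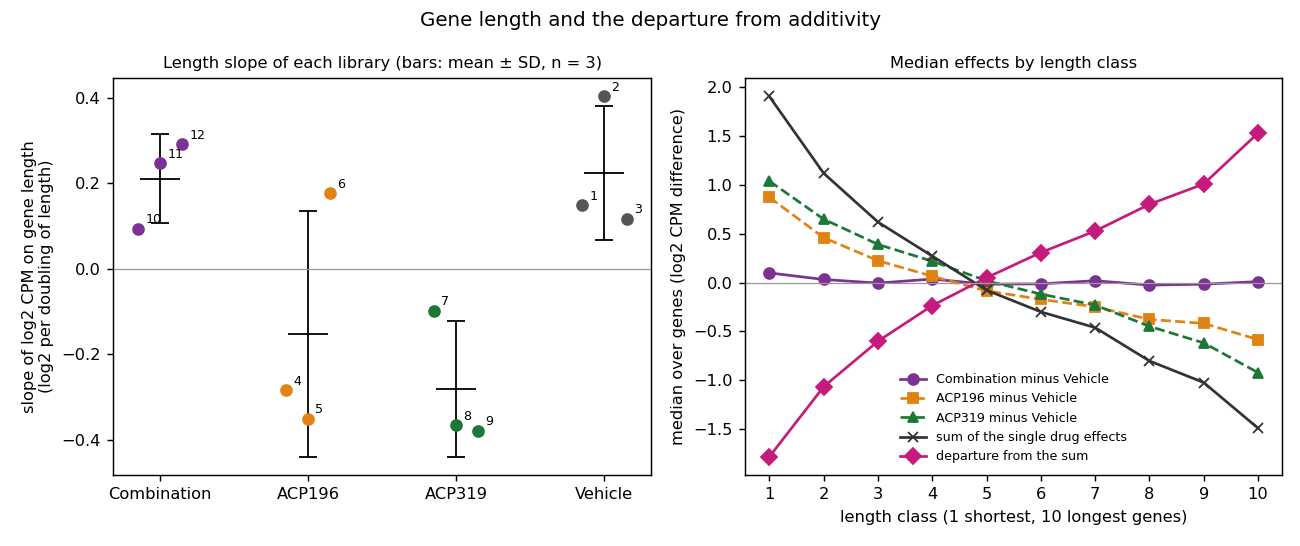
Left, the slope of log2 CPM on gene length (log2 per doubling) in each library, by group, with replicate numbers, group means and SD (n = 3); right, the median over genes of the 3 effects, of the sum of the single effects and of the departure (log2) in 10 equal classes of gene length from short to long. The single drug medians fall across the classes, the Combination median lies near 0 throughout, and the departure runs from -1.78 in the shortest class to 1.53 in the longest.

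With the tested genes split into 10 equal classes by length, the median departure was -1.78 in the shortest class (56 to 1101 bases), 0.05 in the fifth class and 1.53 in the longest (6263 to 83437 bases). It was higher in each class than in the class before. In the shortest class the median effect was 0.10 for the Combination, 0.87 for ACP196 and 1.04 for ACP319, and in the longest 0.01 for the Combination, -0.58 for ACP196 and -0.92 for ACP319. Of the 1275 shortest genes 6 were called higher and 778 lower, and of the 1274 longest 615 were called higher and 9 lower. What produced the length trend of the single drug libraries was not tested.

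Departures were therefore measured within the length classes, by taking out the class median of each library. A departure within the classes is relative to genes of like length. Its sign can differ from that of the departure from the sum of the single drug effects. The median absolute departure was then 0.63, against 0.95 before. No gene was called higher (0% of those tested) and 1 gene was called lower (0.00785%) by edgeR's quasi-likelihood test, although 1444 genes (11.3%) had a positive and 2098 (16.5%) a negative departure at unadjusted p under 0.05. Of the 3522 genes called before, 1786 kept their sign with unadjusted p under 0.05. Other settings gave other counts. DESeq2 called 653 genes higher and 1181 lower, and limma voom with quality weights 1321 higher and 1390 lower. Leaving out ACP196 replicate 5 gave 214 higher and 246 lower calls, and leaving out ACP196 replicate 6 gave 1267 higher and 1807 lower, with 429 genes called in both of these. Leaving out any 1 Combination library gave none.

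The 1 called gene was Capn11 (chromosome 17, 45630204 to 45659309, mm10), a calcium-dependent cysteine protease best known from testis. Its counts were 0, 0 and 1 in the Combination libraries, 78, 5 and 54 in the ACP196 libraries, 42, 20 and 9 in the ACP319 libraries, and 0 in all 3 Vehicle libraries. Reads were thus present in every library given 1 drug and nearly absent from every library given both or neither, with no overlap. The Combination and Vehicle groups lie under a floor of 3 counts over a group, so no fold against them is given. The fitted departure of -7.96 ± 0.68 (SE, adjusted p = 0.00869) depends on the prior count added before the logarithm. Its level was low, 2.43 ± 1.59 CPM with ACP196 and 1.23 ± 0.613 CPM with ACP319 (SD, n = 3 each), below the level set for naming genes, and it is named as the only gene called.

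Among genes of at least moderate level with a positive departure, the 14 named with the smallest p-values within the length classes shared an adjusted p of 0.0643 and so did not pass. Cbl (chromosome 9, 44149262 to 44234046), a ubiquitin ligase that ends signalling from receptor tyrosine kinases and is itself mutated in juvenile myelomonocytic leukemia, had 43.4, 92.3 and 103 CPM in the Combination libraries. It had 7.12, 23.2 and 72.4 CPM in the ACP196 libraries, 13, 6.28 and 5.57 CPM in the ACP319 libraries, and 91.1, 161 and 65.8 CPM in the Vehicle libraries. The ACP319 libraries were all below the others except for ACP196 replicate 4, and ACP196 replicate 6 lay among the Combination and Vehicle libraries. Its departure was 5.36 ± 1.17 without length adjustment (SE, adjusted p = 0.0202) and 4.34 ± 0.95 within its length class.

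Tlr5 (chromosome 1, 182954788 to 182976044), the receptor for bacterial flagellin, had 4.18, 9.73 and 9.71 CPM in the Combination libraries. It had 2.71, 1.82 and 6.8 CPM in the ACP196 libraries, 2.63, 1.67 and 1.52 CPM in the ACP319 libraries, and 12.7, 14.2 and 9.03 CPM in the Vehicle libraries. All Vehicle libraries were above all single drug libraries, and the Combination libraries overlapped both. The departure was 3.74 ± 0.74 without length adjustment and 3.47 ± 0.66 within the class. Cd33, a sialic acid-binding inhibitory receptor of myeloid cells, had 113, 175 and 166 CPM in the Combination libraries, 80.8, 101 and 136 CPM in the ACP196 libraries, 87.6, 65.8 and 59.9 CPM in the ACP319 libraries, and 234, 217 and 187 CPM in the Vehicle libraries. For Cd33 every Vehicle library lay above every Combination library and every ACP319 library below them, while the ACP196 libraries overlapped the Combination and ACP319 ones. Its departure was 2.12 ± 0.35 before and 2.08 ± 0.36 within the class, which has almost no length shift of its own.

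Ep300, a histone acetyltransferase, had 97, 152 and 169 CPM in the Combination libraries, 32.1, 37.6 and 112 CPM in the ACP196 libraries, 44.7, 28.6 and 28.8 CPM in the ACP319 libraries, and 151, 221 and 120 CPM in the Vehicle libraries. It belongs to the longest class, and its departure was 3.65 before and 2.14 ± 0.37 within the class. Ptafr, the receptor for platelet-activating factor, belongs to a class of short genes whose departures were mostly negative, and yet it had 25.9, 23.3 and 35 CPM in the Combination libraries. It had 14, 14.1 and 24.4 CPM in the ACP196 libraries, 18, 6.61 and 10.5 CPM in the ACP319 libraries, and 47.4, 41.6 and 35.3 CPM in the Vehicle libraries. Its departure was 2.63 before and 3.24 ± 0.64 within the class. Cers6, a ceramide synthase, had 2.86 ± 0.53 within its class. The sterol transporter gene Gramd1b had 3.74 ± 0.74, Arid5b, which encodes a chromatin-binding protein, 2.34 ± 0.42, Wdfy3, an adaptor of selective autophagy, 1.81 ± 0.30, and Lrp1, an endocytic receptor, 1.54 ± 0.23. Slco4c1, an organic anion transporter, led the fourth length class with 4.24 ± 0.91. Tarm1, an activating receptor of neutrophils, and Klf7, a zinc finger factor, led the 2 shortest classes with 2.96 ± 0.66 and 2.03 ± 0.45. For Tarm1 the departure was 1.12 before and 1.74 in classes of GENCODE transcript length. For Klf7 it was 0.95 before and -0.13, the opposite sign, in the GENCODE classes, its deposited length of 1336 bases being 0.29 times its median transcript length. Those classes also gave 1.89 for Ptafr and 2.77 for Lrp1.

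**Figure D2:**
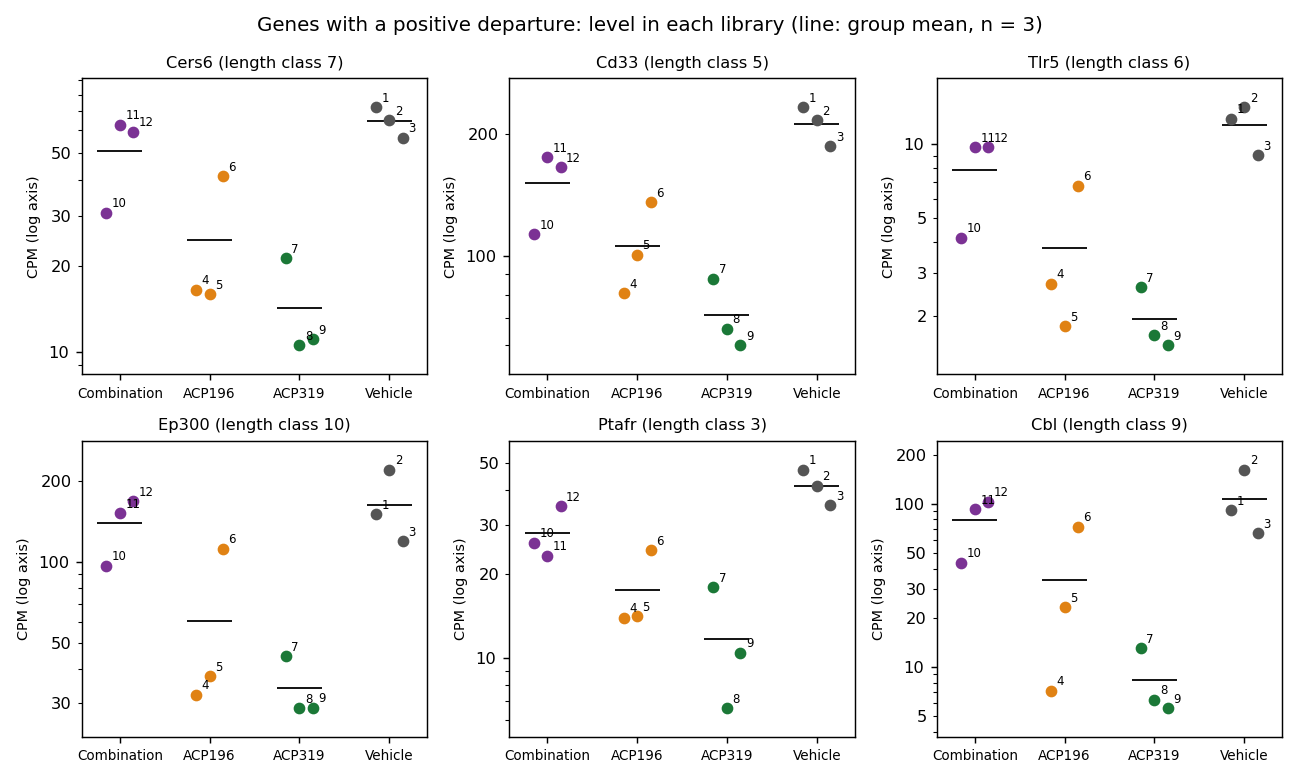
CPM (log axis) of Cers6, Cd33, Tlr5, Ep300, Ptafr and Cbl in each library, by group, with replicate numbers and a line at the group mean (n = 3). In each panel the Vehicle mean is the highest and the ACP319 mean the lowest, and ACP196 replicate 6 is the highest of its group.

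Naca, which had one of the smallest p-values in the other direction and encodes a chaperone subunit at the ribosome exit, had 607, 444 and 438 CPM in the Combination libraries. It had 963, 1563 and 536 CPM in the ACP196 libraries, 746, 1186 and 1502 CPM in the ACP319 libraries, and 459, 299 and 541 CPM in the Vehicle libraries. The ACP319 libraries and ACP196 replicates 4 and 5 were above all Combination and Vehicle libraries. The departure was -2.31 ± 0.61 without length adjustment (adjusted p = 0.0202) and -3.82 ± 0.93 within the class (adjusted p = 0.0643). Naca belongs to the longest class, and the difference between these values is the shift of that class, 1.51. Its deposited length was 1.87 times its median GENCODE transcript length. Rps15a (chromosome 7, 118104376 to 118116147), a protein of the small ribosomal subunit, had 869, 743 and 679 CPM in the Combination libraries. It had 1561, 4468 and 791 CPM in the ACP196 libraries, 1101, 2074 and 2608 CPM in the ACP319 libraries, and 607, 405 and 765 CPM in the Vehicle libraries. ACP196 replicate 5 was the highest library and ACP196 replicate 6 lay within the Combination range. Its departure was -2.88 ± 0.87 before and -3.90 ± 1.08 within the class, and -3.15 within the class without ACP196 replicate 5. The shift of its class, the ninth, was 1.02.

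Eef1b2, an exchange factor of translation elongation, had 818, 629 and 614 CPM in the Combination libraries, 1499, 3945 and 758 CPM in the ACP196 libraries, 1071, 2032 and 2325 CPM in the ACP319 libraries, and 513, 404 and 681 CPM in the Vehicle libraries. Its departure was -3.00 before and -2.39 ± 0.73 within its class of short genes. The mitochondrial ribosome genes Mrpl17, Mrps25 and Dap3 had -3.70 ± 0.92, -3.17 ± 0.80 and -2.43 ± 0.58 within their classes of long genes. Before, they had -2.19, -2.15 and -1.64. Tomm7, a part of the mitochondrial import pore, had -1.48 ± 0.45, and -0.68 with a smallest count of 50. The ribosomal protein gene Rpl36a, which led the shortest class, had -1.46 ± 0.46 and no overlap between the single drug libraries and the others. Itgb3bp, a centromere protein, had -2.66 ± 0.60, and Rnaseh2a, the catalytic subunit of a ribonuclease that removes RNA from DNA, -2.07 ± 0.55. Stx8, a SNARE protein of endosomes, had -2.61 ± 0.63 (-1.82 before and -1.20 in classes of GENCODE transcript length). Camta1, a transcription activator in the longest class, had -3.29 ± 0.80 (-1.78 before). Pnkd had -2.13 ± 0.49 and Serpini1, a serine protease inhibitor, -1.93 ± 0.36.

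**Figure D3:**
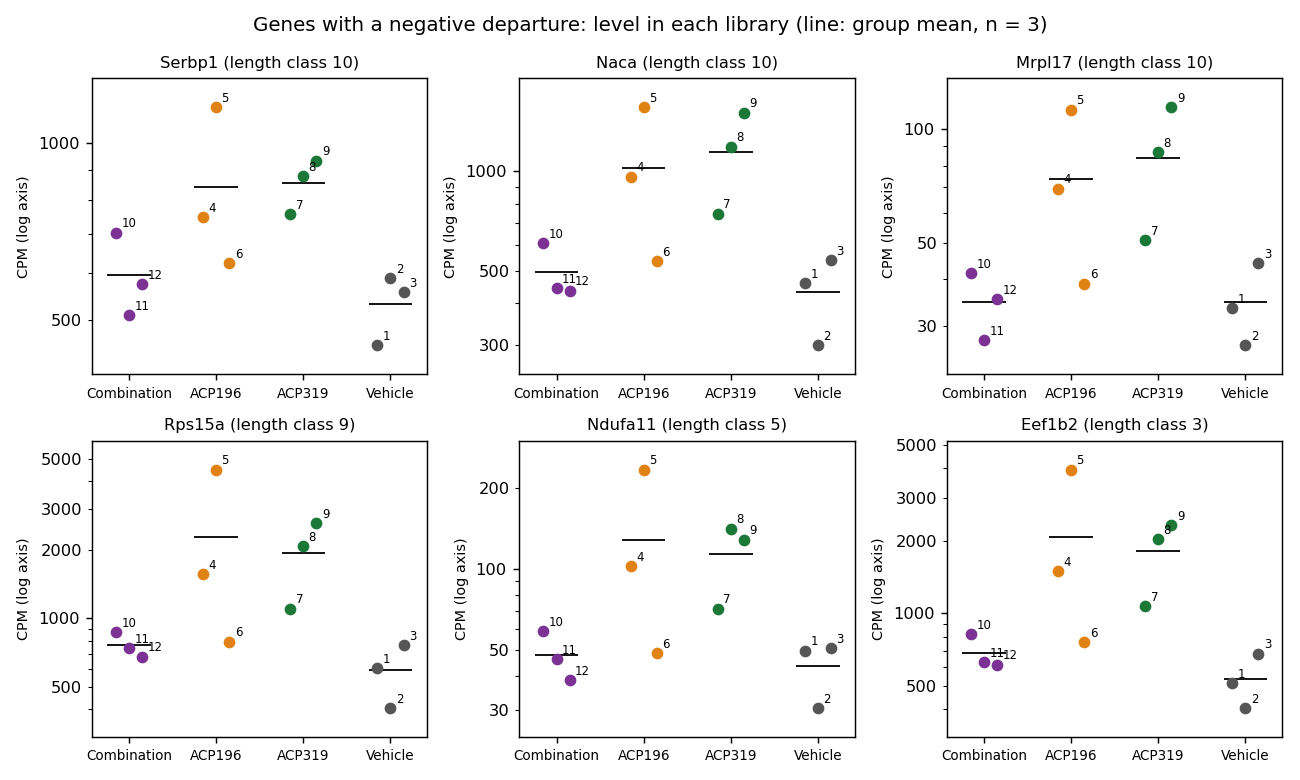
CPM (log axis) of Serbp1, Naca, Mrpl17, Rps15a, Ndufa11 and Eef1b2 in each library, by group, with replicate numbers and a line at the group mean (n = 3). In each panel both single drug means lie above the Combination and Vehicle means, and ACP196 replicate 6 is the lowest of its group.

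Some genes had a larger negative departure within their length class than before, although none of those given here passed within the classes. Cpsf6, a factor of messenger RNA 3′ end processing, had 85.9, 103 and 93.1 CPM in the Combination libraries, 81.5, 87 and 90.6 CPM in the ACP196 libraries, 90.3, 96.9 and 79.3 CPM in the ACP319 libraries, and 68.2, 97.6 and 77.1 CPM in the Vehicle libraries. The groups overlapped throughout and the departure was -0.03 ± 0.19, yet within the longest class, where most genes departed upward, it became -1.54 ± 0.27. The deposited length counts every annotated exon of a gene, and for Cpsf6 it was 2.16 times the median length of its GENCODE transcripts. That ratio was 4.53 for Serbp1, an RNA-binding protein of ribosomes, 5.10 for Ssr1, a part of the translocon of the endoplasmic reticulum, and 3.28 for Dap3. The departure of Serbp1 was -2.65 ± 0.58 within its class and -1.15 before, and that of Ssr1 -2.22 ± 0.49 within its class and -0.72 before. Without length adjustment Serbp1 and Dap3 were called lower, and Cpsf6 and Ssr1 were not called. With the genes of each class put in 4 equal groups by this ratio, the group with the highest ratio had a median departure of -0.29 over all classes, and the group with the lowest 0.21. In the longest class these medians were -0.60 and 0.27. With classes made from the GENCODE transcript lengths instead, the departure was -0.53 for Serbp1, -0.44 for Ssr1, -0.51 for Dap3 and -0.30 for Cpsf6.

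The tested genes were also read through 48 lists of functions and cell types, of which 1269 of 1321 entries were tested. Because 1 gene passed within the length classes, each list is described by its median departure and by how many members had unadjusted p under 0.05. Both, like the effects and deviations of the lists, are within the length classes unless stated otherwise. These effects are thus relative to genes of like length. Over all tested genes the median departure was 0.02, with 11.3% higher and 16.5% lower. The 5 highest lists were Toll-like receptors and adaptors, mature B cell markers, MHC class II presentation, neutrophil granule genes and interferon-gamma GTPases. Without length adjustment the medians of MHC class II presentation and neutrophil granule genes were below 0, at -0.25 and -0.18. The 5 lowest were nuclear retained noncoding RNAs, splicing factors, respiratory complex I, cytoplasmic ribosomal proteins and respiratory complexes II to V.

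**Figure D4:**
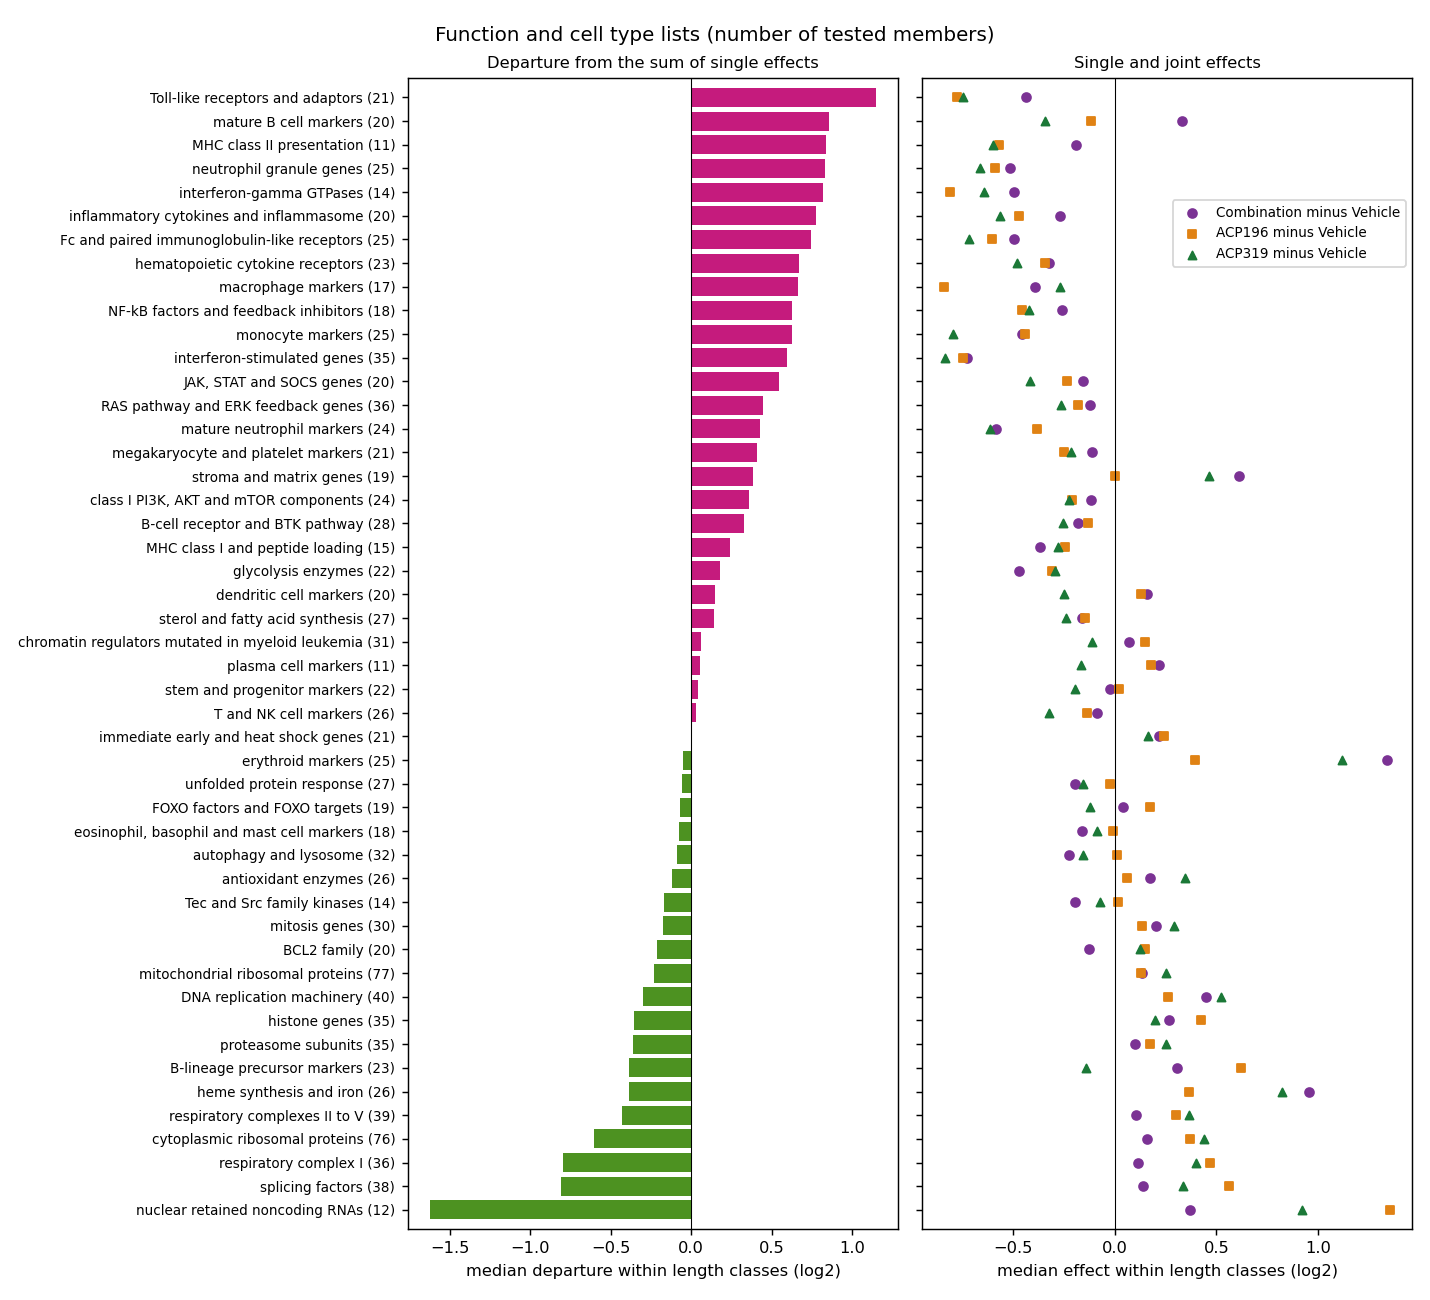
Left, the median departure within length classes (log2) of each of 48 lists, with the number of tested members. Right, the median Combination, ACP196 and ACP319 effects (log2, within length classes) of the same lists. Toll-like receptors stand at the top with 1.15 and nuclear retained noncoding RNAs at the bottom with -1.62, and erythroid markers have the largest Combination median but a departure of -0.05.

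Toll-like receptors and their adaptors, the sensors of microbial products that signal through Myd88 and the IRAK kinases, had a median departure of 1.15. Of 21 members 17 were positive, 11 had p under 0.05 upward and none downward. Without length adjustment 8 were called higher and none lower. Within the classes the list's median effect was -0.44 for the Combination, -0.78 for ACP196 and -0.75 for ACP319. Relative to genes of like length, the median thus lay below Vehicle in all 3, and least with both drugs. The median deviation of its members from their mean was 0.02, -0.05 and 0.06 in the Combination libraries, -0.04, -0.61 and 0.08 in the ACP196 libraries, -0.02, -0.44 and -0.48 in the ACP319 libraries, and 0.56, 0.25 and 0.61 in the Vehicle libraries. Every Vehicle library lay above all 9 treated ones. Tlr6, which pairs with Tlr2 to bind lipopeptides, had 10.3, 9.43 and 12.2 CPM in the Combination libraries, 10.2, 5.65 and 9.7 CPM in the ACP196 libraries, 8.74, 7.55 and 8.04 CPM in the ACP319 libraries, and 16.1, 12.1 and 15.5 CPM in the Vehicle libraries, with a departure of 1.15 ± 0.25. The largest values, chosen after they were seen, were 5.69 ± 2.27 for Tlr8 and 4.60 ± 1.68 for Tlr9, receptors of RNA and DNA in endosomes. The list median was 0.84 without ACP196 replicate 5 and 0.75 with no filter on low counts, and Tlr6 had 0.44 in classes of GENCODE transcript length.

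Interferon-gamma induced GTPases, the guanylate-binding proteins and immunity-related GTPases that attack vacuoles holding microbes, had a median of 0.82. Of 14 members 13 were positive, and 4 had p under 0.05 upward and none downward. Within the classes the median effect was -0.50 for the Combination, -0.81 for ACP196 and -0.65 for ACP319. Irgm2 had 21.2, 17.4 and 21.1 CPM in the Combination libraries, 17.7, 12.3 and 20 CPM in the ACP196 libraries, 20.8, 13.6 and 16.1 CPM in the ACP319 libraries, and 34.6, 27.9 and 32.1 CPM in the Vehicle libraries. All 9 treated libraries lay below all 3 Vehicle libraries, and the 3 effects were alike within the length class, at -0.67, -0.69 and -0.68, so that the departure of 0.70 ± 0.23 has about the size of either single effect. Gbp9 had 2.19 ± 0.93, and 1.42 without ACP196 replicate 5. The list median was 0.54 without ACP319 replicate 8 and 1.25 without ACP196 replicate 6. These genes lie in clusters of similar copies, and how reads shared between copies were counted was not given in the sources used here. Interferon-stimulated genes as a wider list had a median of 0.59, with 29 of 35 members positive, 7 with p under 0.05 upward and none downward. Their median effects within the classes were -0.73 for the Combination, -0.75 for ACP196 and -0.83 for ACP319.

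Promoters of Irgm2, Irgm1 and Gbp7 are shown because 13 of the 14 departures had the same sign and the genes share a short element. Irgm1, with a departure of 1.32 ± 0.59, and Gbp7, with 1.45 ± 0.64, were picked after their values were seen. The 150 bases before the annotated start are given from RefSeq (GRCm38.p6), 5′ to 3′ on the gene's strand. Capitals mark matches, on either strand and with overlaps allowed, to GAAA followed by any 2 bases and GAAA, the core of the element that interferon response factors bind.
Irgm2, chr11:58214827-58214976, plus strand: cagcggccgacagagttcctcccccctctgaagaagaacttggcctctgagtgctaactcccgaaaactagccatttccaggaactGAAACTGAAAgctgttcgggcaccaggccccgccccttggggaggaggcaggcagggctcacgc
Irgm1, chr11:48871421-48871570, minus strand: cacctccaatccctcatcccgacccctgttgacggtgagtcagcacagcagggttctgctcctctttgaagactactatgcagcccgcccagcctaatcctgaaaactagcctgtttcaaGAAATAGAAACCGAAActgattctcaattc
Gbp7, chr3:142530186-142530335, plus strand: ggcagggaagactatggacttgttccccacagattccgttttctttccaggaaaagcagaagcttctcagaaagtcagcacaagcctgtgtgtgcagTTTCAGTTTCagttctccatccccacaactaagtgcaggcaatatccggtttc
The first match began 64 bases before the start of Irgm2, 30 before that of Irgm1 and 53 before that of Gbp7. In the 300 bases around the start, all 9 of the 14 GTPase promoters that could be matched held the element, as did 13 of 24 (54.2%) of the interferon-stimulated genes, 2 of 16 (12.5%) of the Toll-like receptor list and 313 of 9691 (3.23%) of all tested genes with a promoter. Several of the GTPase genes are copies of each other, and the match is a description of the letters.

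MHC class II genes had a median of 0.83, with 9 of 11 positive and 4 at p under 0.05 upward, but the median was -0.25 without length adjustment, 0.51 without ACP196 replicate 5 and 0.39 with no filter on low counts. Ciita, the master activator of class II genes, had 6.22, 7.48 and 14.8 CPM in the Combination libraries, 1.54, 1.21 and 9.5 CPM in the ACP196 libraries, 4.67, 1.8 and 2.28 CPM in the ACP319 libraries, and 10.2, 10.8 and 8.29 CPM in the Vehicle libraries. It departed by 3.52 ± 1.07 (adjusted p = 0.0337) before and by 2.50 ± 0.85 (adjusted p = 0.109) within the class. H2-Aa, a class II alpha chain in the shortest length class, had 223, 158 and 278 CPM in the Combination libraries, 214, 196 and 255 CPM in the ACP196 libraries, 299.6, 271 and 286 CPM in the ACP319 libraries, and 307, 170 and 321 CPM in the Vehicle libraries. The groups overlapped and the departure was -0.20 ± 0.40, against 1.64 ± 0.65 within the class.

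Neutrophil granule genes, short like the class II genes, had a median of 0.83 within the classes and -0.18 without them, and within the classes 0.45 without ACP196 replicate 5, 0.51 without ACP319 replicate 9 and 0.35 with no filter on low counts. Of 25 tested members 18 were positive. At p under 0.05, 3 were upward (12%, against 11.3% of all tested genes) and 2 downward (8%, against 16.5%). Arg2, a mitochondrial arginase, had 0.95 ± 0.29 within its class and -0.14 before. Prss57, a serine protease of primary granules, went against its list with -1.50 ± 0.67. Mature B cell markers had a median of 0.86, with 18 of 20 positive, 5 with p under 0.05 upward and none downward. The median effect of this list within the classes was 0.33 for the Combination, -0.12 for ACP196 and -0.34 for ACP319. Its list deviations were 0.16, 0.32 and 0.47 in the Combination libraries, -0.65, -0.30 and 0.71 in the ACP196 libraries, -0.20, -0.59 and -0.41 in the ACP319 libraries and -0.17, -0.12 and 0.27 in the Vehicle libraries. The ACP196 libraries spread over the whole range, and the list median was 0.49 without ACP196 replicate 4, 0.55 without Combination replicate 12 and 1.35 without ACP196 replicate 6. Pou2f2, a B cell and myeloid transcription factor, had 15.1, 14.5 and 17.1 CPM in the Combination libraries, 7.91, 5.65 and 13.6 CPM in the ACP196 libraries, 10.6, 5.81 and 6.14 CPM in the ACP319 libraries, and 20.7, 18 and 22.4 CPM in the Vehicle libraries. No single drug library reached any Combination or Vehicle library, and the departure was 2.34 ± 0.47 (adjusted p = 0.0202) before and 1.84 ± 0.35 (adjusted p = 0.0643) within the class. Cd180, a Toll-like receptor homologue of B cells and macrophages, had 33.5, 29.8 and 39.4 CPM in the Combination libraries, 11.2, 2.02 and 38.9 CPM in the ACP196 libraries, 21.6, 6.55 and 14.8 CPM in the ACP319 libraries, and 42.5, 47 and 37.8 CPM in the Vehicle libraries. Its departure was 3.76 ± 1.32, and ACP196 replicate 6 stood among the Combination and Vehicle libraries.

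Hematopoietic cytokine receptors had a median of 0.67 with 9 of 23 members at p under 0.05 upward and none downward, and monocyte markers 0.62 with 8 of 25 upward and none downward. Macrophage markers had 0.66, which was 1.02 without Combination replicate 11 and 1.06 without ACP319 replicate 7. Mature neutrophil markers had 0.42, which was 0.65 without ACP196 replicate 4 and 0.06 with no filter on low counts. Megakaryocyte and platelet markers had 0.40, which was 0.16 without ACP319 replicate 9 and 0.27 without ACP196 replicate 5. Stroma and matrix genes had 0.38, with values from 0.20 without ACP196 replicate 4 to 0.63 with no filter on low counts. Of these 4 lists, between 2 and 3 members each had p under 0.05 upward and between 0 and 2 downward. The upward shares were 11.8% of macrophage markers, 12.5% of mature neutrophil markers, 14.3% of megakaryocyte and platelet markers and 10.5% of stroma and matrix genes. They lay near the 11.3% of all tested genes. B-lineage precursor markers had -0.39 with 4 of 23 at p under 0.05 downward (17.4%, against 16.5% of all tested genes) and none upward. Their median was -0.66 without ACP196 replicate 4, 0.05 without ACP196 replicate 6 and 0.02 without Vehicle replicate 1. T and NK cell markers had a median of 0.03, with 5 of 26 at p under 0.05 upward and 1 downward, and the median was 0.49 without ACP319 replicate 7 and 0.41 without ACP196 replicate 5. Dendritic cell markers had 0.15, which was -0.12 without ACP196 replicate 4, and stem and progenitor markers had 0.04, with values from -0.06 to 0.20 over the within-class alternatives. Erythroid markers had the largest Combination effect of all lists within the classes, a median of 1.34, beside 0.39 for ACP196 and 1.12 for ACP319. Their departure of -0.05 placed them near the sum of the single effects on that scale. Of 25 members 1 had p under 0.05 upward and 3 downward. Without length adjustment the median departure was -0.16. The list spread widely within groups: its deviations were 0.60, 0.76 and 0.59 in the Combination libraries, -0.59, -0.06 and -0.18 in the ACP196 libraries, 0.14, 0.20 and 0.90 in the ACP319 libraries and -1.83, 0.03 and -0.38 in the Vehicle libraries. Leaving out Vehicle replicate 1 gave a median departure of 0.42 and leaving out Vehicle replicate 2 gave -0.51.

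The genes of the pathway that the drugs block had large departures before and smaller ones within the length classes. Components of class I PI3K, AKT and mTOR signalling are long genes with a median departure of 1.45 before, when 13 of 24 were called higher and none lower. Within the length classes the median was 0.36. At p under 0.05, 3 were upward (12.5%, against 11.3% of all tested genes) and 2 downward. B-cell receptor and BTK pathway genes had 0.88 before, with 8 of 28 called higher and 1 lower, and 0.33 within the classes, which was 0.20 without ACP196 replicate 5 and 0.61 without ACP196 replicate 6. RAS pathway and ERK feedback genes had 0.94 before and 0.45 within the classes, and 0.17 there with a smallest count of 50. Btk, the target of ACP196, had 94.3, 86.5 and 89.9 CPM in the Combination libraries, 107, 83.8 and 98.9 CPM in the ACP196 libraries, 105, 102 and 107 CPM in the ACP319 libraries, and 108, 88.5 and 104 CPM in the Vehicle libraries, with a departure of -0.20 ± 0.09 (adjusted p = 0.605) within its class. Pik3cd, the target of ACP319, had 146, 167 and 178 CPM in the Combination libraries, 121, 162 and 163 CPM in the ACP196 libraries, 128, 115 and 93.4 CPM in the ACP319 libraries, and 215, 252 and 199 CPM in the Vehicle libraries. All 9 treated libraries lay below the Vehicle libraries. Its departure was 1.14 ± 0.23 (adjusted p = 0.0265) before and 0.12 ± 0.20 (adjusted p = 0.847) within the class. With 1 library left out, the departure within the class lay between 0.01 without ACP196 replicate 6 and 0.27 without ACP196 replicate 5. It was 0.33 with no filter on low counts and -0.12 with 5 length classes. Ptpn11, the gene mutated in the model, had 0.64 ± 0.54 within its class (adjusted p = 0.501), and 0.11 without ACP196 replicate 5. Kinase inhibitors act on the protein, so these levels are no check of the treatment.

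At the negative end, nuclear retained noncoding RNAs had a median of -1.62, with 7 of 12 at p under 0.05 downward and none upward. The list's name is a label, and where the RNA of its members lay in the cell was not measured. The list's deviation was 2.12 in ACP196 replicate 5, against 0.45 or less in the other 11 libraries. Without that library the median was -0.79, and in classes of GENCODE transcript length it was -0.67. Rn45s is a member of this list, and its level in that library was 280314 CPM against 1726 to 8045 CPM in the others, and its departure was -4.71 ± 2.46 with that library and -2.52 without it. Gas5, a host transcript of small nucleolar RNAs, had 110, 154 and 93.7 CPM in the Combination libraries, 182, 489 and 112 CPM in the ACP196 libraries, 167, 265 and 344 CPM in the ACP319 libraries, and 89.3, 59.1 and 120 CPM in the Vehicle libraries. Its departure was -2.45 ± 0.85 within the class, -1.79 without ACP196 replicate 5 and -0.67 in classes of GENCODE transcript length.

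Splicing factors had a median of -0.81, with 17 of 38 at p under 0.05 downward and 3 upward, and 15 called lower and 2 higher without length adjustment. Within the classes the median effect was 0.14 for the Combination, 0.56 for ACP196 and 0.34 for ACP319. Srsf3, an SR protein that guides exon choice, had 324, 271 and 247 CPM in the Combination libraries, 594, 1157 and 267 CPM in the ACP196 libraries, 384, 679 and 688 CPM in the ACP319 libraries, and 263, 165 and 295 CPM in the Vehicle libraries. Its departure was -2.29 ± 0.73 (adjusted p = 0.0202) before and -2.56 ± 0.84 within the class. Srsf1, another SR protein, had -1.51 ± 0.43 within the class, -0.76 in classes of GENCODE transcript length and -0.49 ± 0.27 before. The list median was -0.46 without ACP196 replicate 5, whose list deviation of 0.71 was the highest.

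Respiratory complex I, which passes electrons from NADH to ubiquinone, had a median of -0.79. Of 36 members 34 were negative, 21 had p under 0.05 downward and none upward. Without length adjustment its median was -2.36, with 34 called lower. The list deviations were -0.09, -0.22 and -0.14 in the Combination libraries, 0.18, 0.70 and -0.18 in the ACP196 libraries, -0.05, 0.26 and 0.32 in the ACP319 libraries, and -0.25, -0.24 and -0.19 in the Vehicle libraries. ACP196 replicate 6 and ACP319 replicate 7 lay within or next to the Combination libraries, and the other 4 single drug libraries above them. Ndufa11, a membrane arm subunit, had 58.8, 46.2 and 38.7 CPM in the Combination libraries, 102, 233 and 48.8 CPM in the ACP196 libraries, 71.1, 141 and 128 CPM in the ACP319 libraries, and 49.8, 30.5 and 50.8 CPM in the Vehicle libraries. Its departure was -2.50 ± 0.78 (adjusted p = 0.0202) before and -2.54 ± 0.84 within the class, and -0.76 in classes of GENCODE transcript length, its deposited length being 4.88 times its median transcript length. Ndufv2, a subunit of the NADH-oxidizing module, had -1.85 ± 0.69.

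Complexes II to V had a median of -0.43 with 18 of 39 at p under 0.05 downward and none upward. Their median was -2.06 without length adjustment and -0.80 in classes of GENCODE transcript length. Cox7c and Cox6c, subunits of cytochrome c oxidase, had -1.48 ± 0.53 and -1.08 ± 0.34 within the class of shortest genes, and -3.32 and -2.92 before. Cytoplasmic ribosomal proteins had -0.61, with 39 of 76 at p under 0.05 downward and none upward, and -2.23 with 70 called lower without length adjustment. Within the classes their median effect was 0.16 for the Combination, 0.37 for ACP196 and 0.44 for ACP319. Rpl22, a large subunit protein that binds RNA, had 506, 401 and 383 CPM in the Combination libraries, 815, 1794 and 456 CPM in the ACP196 libraries, 606, 1096 and 1403 CPM in the ACP319 libraries, and 346, 247 and 435 CPM in the Vehicle libraries, with a departure of -2.62 ± 0.79. Mitochondrial ribosomal proteins, also short, had -1.82 with 59 of 77 called lower before and -0.23 within the classes, with 24 at p under 0.05 downward and none upward. Chromatin regulators mutated in myeloid leukemia, the longest list, had 1.40 with 13 of 31 called higher and 1 lower before, and 0.06 within the classes, which was 0.34 without ACP196 replicate 5 and -0.14 without ACP196 replicate 4. The mitochondrial ribosomal median was -0.36 without ACP319 replicate 8 and -0.14 without ACP319 replicate 9. With no filter on low counts, and the class medians taken over 17848 genes, the within-class medians lay further below 0: -1.54 for complex I, -1.26 for complexes II to V, -1.49 for cytoplasmic and -1.14 for mitochondrial ribosomal proteins. The same setting gave -2.47 for Rpl36a, -2.49 for Cox7c and -2.10 for Cox6c. Other alternatives lay nearer 0. With each length class split at its median expression level, cytoplasmic ribosomal proteins had -0.42, complexes II to V -0.27 and mitochondrial ribosomal proteins -0.11. Complex I had -0.59 without ACP196 replicate 5.

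**Figure D5:**
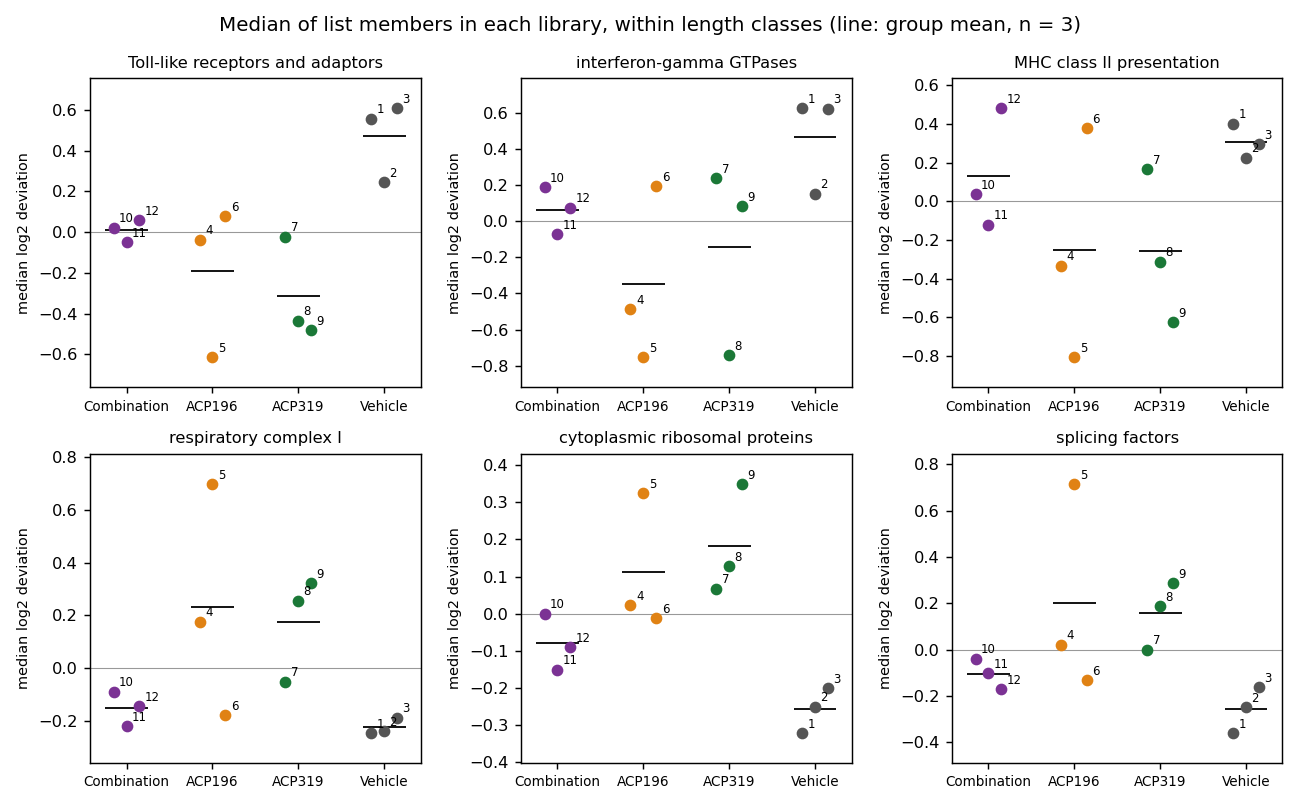
Median deviation (log2, within length classes) of the members of 6 lists in each library, by group, with replicate numbers and a line at the group mean (n = 3). In the upper panels the Vehicle mean is the highest and the single drug means the lowest; in the lower panels both single drug means lie above the Combination and Vehicle means, with ACP196 replicate 6 next to the Combination libraries.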

How the data were processed

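Total RNA of 12 bone marrow specimens was made into libraries with a SMART-Seq low-input kit and Nextera XT, per the labels' protocols. STAR, featureCounts and mm10 are named in the submitters' processing notes, and their versions and the strand setting were not given there. The deposited table holds the authors' whole-number read counts per gene, with no normalization, and an exon length per gene. It has 1 column per specimen for 24 listed samples, 2 to a specimen, which were taken as 1 replicate. Genes were filtered with edgeR's filterByExpr (smallest count 10, total 15), scaled by TMM and fitted with edgeR 4.0.16 (R 4.3.3) by robust quasi-likelihood over 4 groups, with Benjamini-Hochberg adjustment over all 12742 genes and a threshold of 0.05. The second fit added an offset per library and class of length (10 classes). Departures and SE are from log2 CPM with a prior count of 2 and the spread pooled over the groups. CPM levels use the TMM-scaled library sizes. Alternatives used DESeq2 1.42.0 and limma 3.58.1. Both fits were also run on simulated data, in which each gene had the same spread in all libraries. There was either no length trend or a trend of the form that the second fit removes. The outcome is not given here, and no result rests on it. Of its gene symbols 95.7% matched the reference, and 6573 genes had no count. Replicates were no copies of each other: chi-square over its degrees of freedom ran from 21.4 to 644 between libraries of a group.

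Named genes had mean log2 CPM of at least 2. They were the 10 with the smallest p in each direction within length classes, the leading gene of each class and direction, the 2 leading members of the 5 highest and 5 lowest lists, and Btk, Pik3cd and Ptpn11. The comparison and the lists were chosen with earlier results of these data known. Alternatives were other scalings, filters, tests, class numbers, a Y-linked covariate and leaving out each library. GENCODE transcript lengths (96.4% of tested genes matched) were added after seeing the data.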

Additional observations from a re-analysis of the deposited data

Results flagged for a closer look

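A departure from the sum of the single drug effects drew attention to 3 results. The departure of the length slope was 0.87 log2 per doubling of gene length, and it kept its direction in every alternative tried, between 0.74 and 1.00. The departures without length adjustment came to 3522 called genes, a count that was 0 or 1 when Combination replicate 11 or 12, ACP319 replicate 8 or 9 or Vehicle replicate 2 was left out. Capn11 departed by -7.96 within length classes and was the only gene called there. In groups of 3 libraries no single library was tested as an outlier.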

How the results depend on the processing

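No paired analysis was possible because the 4 groups share no replicate number. Without length adjustment the 3522 calls (43.4% higher) became 6763 with limma voom and quality weights (50.8% higher) and 1518 when scaled by library size alone (74.4% higher), and lay between 0 and 5692 when 1 library was left out. Within length classes the 1 call became 1834 with DESeq2 (35.6% higher), 2711 with limma voom (48.7% higher) and 0 with a smallest count of 50, when 3232 genes had unadjusted p under 0.05. It lay between 0 and 3074 when 1 library was left out. With classes split by the ratio of deposited to GENCODE length and without ACP196 replicate 5, an alternative added after seeing the data, it was 139 (54.7% higher). With a single Combination library left out, 2673 to 3208 genes had unadjusted p under 0.05 while none was called within classes, and 4575 and 4429 without length adjustment where leaving out replicates 11 and 12 gave no call. The other alternatives kept both counts within 1.5 times. The length slope departure lay between 0.74 and 1.00 (permutation p 0.00216 to 0.0152, exact). Of the named genes, 5 changed sign: Pik3cd was -0.12 with 5 length classes, Arg2 -0.14 and H2-Aa -0.20 without length classes, Klf7 -0.13 with classes of GENCODE transcript length, and Ptpn11 -0.042 with classes split by the GENCODE ratio without ACP196 replicate 5. The cause was not tested. Capn11 kept its direction in 28 alternatives and its call in 25. The smallest library, ACP196 replicate 5 with 8993950 counts, limits what can be said of genes of low level.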
